A study of Bos taurus with 8 samples.

Results

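Of the 32640 genes listed in the count table, 10 were examined here: the fibroblast growth factor (FGF) ligands FGF2 and FGF4, the receptors FGFR1, FGFR2, FGFR3 and FGFR4, and the feedback genes SPRY2, SPRY4, DUSP6 and DUSP4. They were taken by gene name, and all 10 had a row with values. FGF ligands bind receptor tyrosine kinases together with heparan sulfate, and the activated receptor signals through the adaptor FRS2 to RAS, RAF, MEK and ERK. ERK induces its own inhibitors, among them the Sprouty proteins, which act between the receptor and ERK, and the DUSP phosphatases, which remove the activating phosphates from ERK. The transcripts of such feedback genes are widely used as a readout of ERK activity, and FGF2 is a standard supplement for keeping primed pluripotent cells undifferentiated.

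The 4 bovine embryonic stem cell (bESC) lines (A, C, D and E), all XX and derived from in vitro-produced bovine embryos on feeders, were each sequenced from culture on MEF (irradiated mouse embryonic fibroblasts) and from feeder-free culture on vitronectin, so that each condition had 4 libraries and each line had 1 in each condition. All cultures were kept in 5% O2 and in NBFR medium, which contains human FGF2 and the WNT inhibitor IWR-1. MEF cultures were at passage 15 to 17 and feeder-free cultures at passage 20 to 22. The sample titles name the same medium for both conditions, whereas the methods of the study add Activin A for feeder-free culture. Feeders, matrix, passage and possibly Activin A thus changed together and cannot be told apart. The same holds for a subtraction of MEF reads, which the study describes only for bESCs on MEF. The study mentions sequencing batches and applied no batch correction. The batch of each library was not given in the sources used here, so whether batch differed between conditions could not be seen. Libraries held 44268717 to 102351560 counts on genes, the largest being the feeder-free library of line D, and no library was a copy of another of its condition. POU5F1, the defining factor of pluripotent cells, was at a mean of 2048 CPM (counts per 1000000 counts of a library, TMM-scaled) on MEF and 1850 CPM in feeder-free conditions. In bulk RNA, fewer cells of a type and less RNA per cell cannot be told apart.

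In feeder-free bESCs the FGF2 transcript was 2.22 times and the feedback gene SPRY4 3.36 times its level on MEF, DUSP6 and FGFR4 were also at higher levels in 4 of 4 lines, and FGFR3 was at 0.608 times its level on MEF. SPRY4 was the only member to pass both thresholds (adjusted P-value under 0.05 and fold change of at least 1.5) in the comparison of conditions without regard to line, 1 of 9 tested, where 1.73% of the 15744 genes tested passed, 0.724% as higher and 1% as lower. When each line served as its own control (replicate block), 5 of 9 passed, where 10% of all genes (1582) did. Higher in that fit were FGF2, SPRY4, DUSP6 and FGFR4, in a direction in which 5.52% of all genes passed, and lower was FGFR3, in a direction in which 4.53% did. FGFR1, SPRY2 and DUSP4 had log2 fold changes (log2FC, feeder-free over MEF) between -0.06 and 0.07 and passed in neither fit. An unadjusted P-value under 0.05 was reached by 5 of 9 members in the unpaired test, beside 21.6% of all genes, and the conditions did not overlap for 4 of 9, FGF2, FGFR4, SPRY4 and FGFR3, beside 14.6%. All 9 tested members had at least 66 counts in every library, so none owed its place in the test to 1 condition alone.

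**Figure D1:**
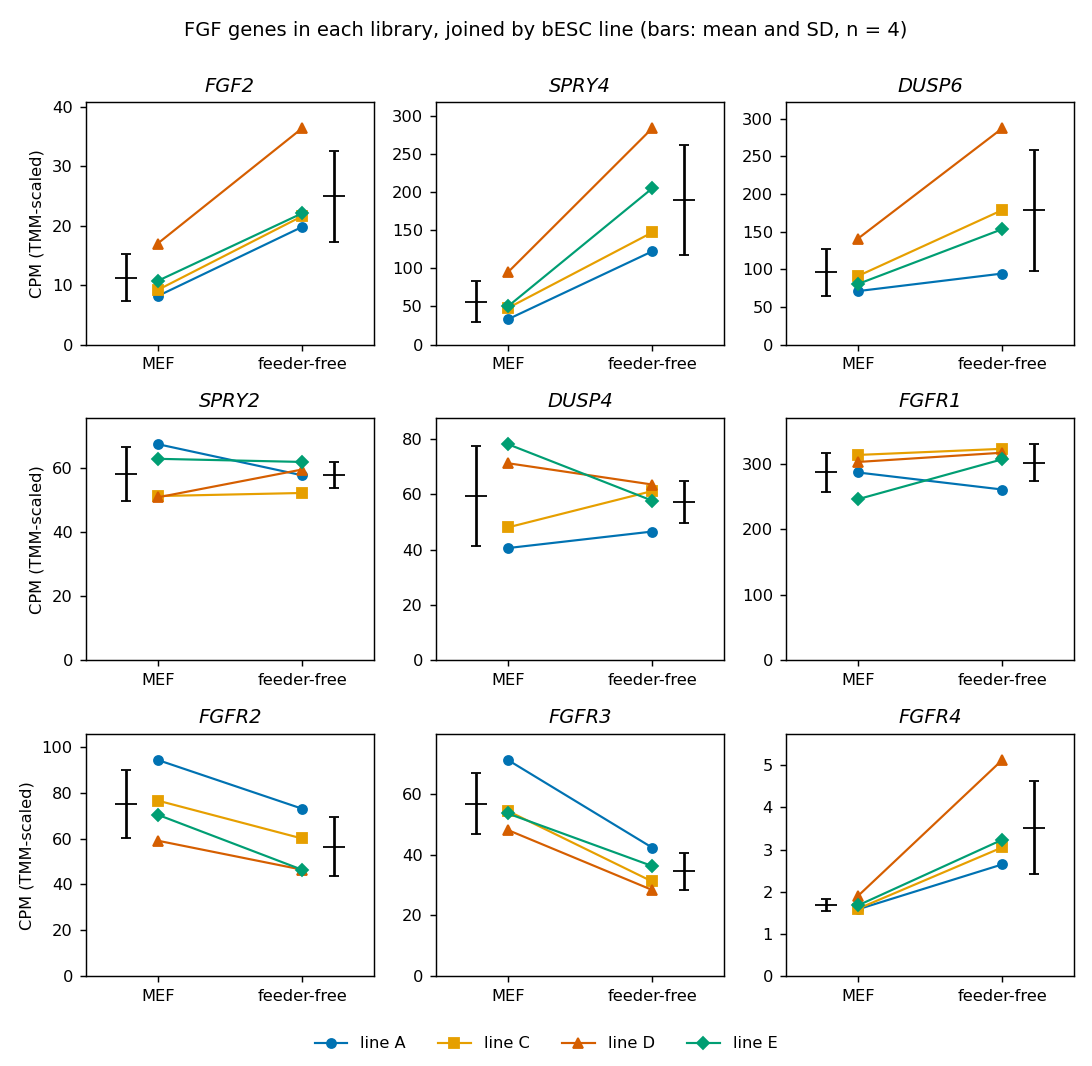
CPM of each tested gene in the 4 MEF and 4 feeder-free libraries, with the 2 libraries of a line joined and the mean and SD of each condition drawn beside them (n = 4). The lines of FGF2, SPRY4, DUSP6 and FGFR4 all climb, those of FGFR2 and FGFR3 all descend, and those of FGFR1, SPRY2 and DUSP4 cross.

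FGF2, the ligand that is also supplied in the medium, is encoded on chromosome 17 (34801330 to 34860849, ARS-UCD2.0). On MEF it was at 8.16 CPM in line A, 9.19 in line C, 17.0 in line D and 10.7 in line E, and in feeder-free conditions at 19.8, 21.6, 36.4 and 22.1 CPM. The conditions did not overlap, which held in the higher direction for 6.21% of all genes tested. Every line was higher by a similar factor, with log2 ratios of 1.27 in A, 1.23 in C, 1.10 in D and 1.04 in E. This gave a log2FC of 1.15 ± 0.28 (SE) at an edgeR adjusted p of 0.0621, and with the replicate block it was 1.16 (SE 0.13, edgeR adjusted p = 0.00132). Without both libraries of any 1 line the paired adjusted p was 0.00380 to 0.0109. FGF2 shares 5832 bases of its span with NUDT6, and whether counting used strand is not given in the sources used here. NUDT6 itself had a log2FC of -0.13 ± 0.21 (SE) at an edgeR adjusted p of 0.784, and the log2 ratio of FGF2 to NUDT6 reads within a library was 0.62 to 1.78 on MEF and 1.68 to 2.97 in feeder-free conditions. It was higher by 1.06 to 1.55 in each line.

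FGF4, the ligand made by the epiblast of the mouse embryo (chromosome 29, 47001981 to 47003919), was not tested. It had 8 counts in the MEF library of line A and 0 in the other 7 libraries. A count of 0 allows up to 3 counts, or 0.0293 to 0.0720 CPM depending on the depth of the library, and this limit covers counting error only. Where both mates of a fragment were counted, the limit is 6 counts, or 0.0586 to 0.144 CPM. At this depth FGF4 was therefore detectable in 1 library, at 0.192 CPM, and no difference between conditions could be assessed.

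Among the receptors, FGFR3 passed as lower and FGFR4 as higher when line was a term, and FGFR1 and FGFR2 passed in neither fit. FGFR3 (chromosome 6, 116766308 to 116781167) was at 71.2, 54.4, 48.1 and 53.6 CPM on MEF in lines A, C, D and E, and at 42.3, 31.2, 28.4 and 36.3 CPM in feeder-free conditions. The highest feeder-free value, that of line A, lay below the lowest on MEF, that of line D, a separation found in the lower direction for 8.36% of all genes. This gave a log2FC of -0.72 ± 0.17 (SE) at an edgeR adjusted p of 0.0567, with log2 ratios of -0.56 to -0.80, and the paired fit with the replicate block gave an adjusted p of 0.00420 at the same size. FGFR3 passed in that fit without both libraries of any 1 line as well.

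FGFR4 (chromosome 7, 38575626 to 38586374) was the receptor with the fewest reads, 66 to 92 on MEF and 132 to 524 in feeder-free conditions. Its level was 1.58, 1.598, 1.90 and 1.68 CPM on MEF in lines A, C, D and E. In feeder-free conditions it was 2.65, 3.05, 5.12 and 3.23 CPM, without overlap, beside 6.21% of all genes in that direction. The MEF libraries spanned a narrow range, whereas line D stood above the other feeder-free libraries. This gave a log2FC of 1.06 ± 0.28 (SE) at an edgeR adjusted p of 0.0759 and 1.02 with the replicate block (adjusted p = 0.0287). That call was lost without both libraries of line C, D or E, where the paired adjusted p from edgeR was 0.0903, 0.174 and 0.0556 with log2FC values of 1.06, 0.87 and 1.05.

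FGFR2 (chromosome 26, 41450677 to 41557736), the receptor whose splice forms divide epithelial from mesenchymal ligand use, was at 94.2, 76.6, 59.1 and 70.4 CPM on MEF in lines A, C, D and E and at 73.0, 60.0, 46.4 and 46.4 CPM in feeder-free conditions. It was at a lower level in 4 of 4 lines, but the conditions overlapped, with line A highest in both. Its log2FC of -0.41 (SE 0.19, edgeR adjusted p = 0.252) was below the fold change threshold, also in the paired fit, where it was -0.42 (adjusted p = 0.0303). Counts per gene do not separate the splice forms, and a lncRNA, LOC132343968, lies within the FGFR2 span with a mean under 0.2 CPM in either condition.

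FGFR1 (chromosome 27, 33548428 to 33599029), the main FGF receptor of mouse pluripotent cells, was at 287, 313, 303 and 246 CPM on MEF in lines A, C, D and E and at 261, 323, 317 and 307 CPM in feeder-free conditions. The conditions overlapped almost fully, and the line ratios ran from -0.14 in A to 0.32 in E on the log2 scale. This gave a log2FC of 0.07 ± 0.13 (SE) at an edgeR adjusted p of 0.802. FGFR1 thus differed less between conditions than between lines.

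The makeup of receptor reads shifted with these changes. Reads were not corrected for transcript length, so the shares below are compared between libraries and not between receptors. FGFR3 held 11.7 to 15.7 percent of the reads of the 4 receptors on MEF and 7.16 to 11.2 percent in feeder-free conditions, FGFR4 held 0.349 to 0.461 and 0.699 to 1.29 percent, and FGFR1 held 63.2 to 73.5 and 68.8 to 79.8 percent. Ratios of 2 genes within a library do not depend on scaling, though they can depend on the subtraction of MEF reads. Tests were run on 8 such ratios: the 6 pairs of receptors, SPRY4 to SPRY2 and DUSP6 to DUSP4. The exact test compared 4 with 4 libraries without regard to line, since a test of 4 line differences by exact sign changes cannot go below p = 0.125. Its smallest p says only that the conditions did not overlap for that ratio. Ratios that share a gene are not independent, so the adjusted p is a description. The log2 ratio of FGFR3 to FGFR4 reads was 5.06 ± 0.340 (SD, n = 4) on MEF and 3.33 ± 0.635 (SD, n = 4) in feeder-free conditions (exact permutation, two-sided p = 0.0286, the smallest possible, adjusted over the 8 ratios 0.0458). It fell by 1.49 to 2.19 in every line. Since FGFR3 was lower and FGFR4 higher without overlap, their ratio could not overlap either. Its exact p was thus fixed by the values of the single genes and adds nothing to them. FGFR1 to FGFR4 and FGFR2 to FGFR4 reached the same exact p, with mean differences of -0.94 and -1.43. Both hold FGFR4, which was itself higher without overlap, as were 6.21% of all genes tested. How often ratios of other gene pairs reach this p was not computed, so it does not set these ratios apart. For FGFR1 to FGFR3 the mean difference was 0.79, from 0.61 to 0.88 by line and so of 1 sign in 4 of 4 lines, and the exact permutation p, which does not use the pairing, was 0.0571 (adjusted 0.0761). FGFR1 to FGFR2 and FGFR2 to FGFR3 had exact permutation p of 0.114 each.

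Of the Sprouty genes among the members, SPRY4 rose and SPRY2 did not pass in any fit. SPRY1 and SPRY3, which are not members, passed neither in the unpaired nor in the paired fit. SPRY1 was higher in 4 of 4 lines without overlap (log2FC of 0.54), beside 6.21% of all genes without overlap in that direction. SPRY4, a membrane-associated inhibitor of receptor tyrosine kinase signalling on chromosome 7 from 53336846 to 53351174, was at 33.2, 47.9, 94.6 and 49.99 CPM on MEF in lines A, C, D and E and at 122, 147, 283 and 205 CPM in feeder-free conditions. The lowest feeder-free value, in line A, lay above the highest on MEF, in line D. This gave a log2FC of 1.75 ± 0.36 (SE) at an edgeR adjusted p of 0.0471, with log2 ratios of 1.88 in A, 1.62 in C, 1.58 in D and 2.03 in E. This call was lost on leaving out any single library but feeder-free A, with adjusted p up to 0.126 and log2FC values of 1.49 to 2.12. The paired fit with the replicate block gave 1.78 (SE 0.12, edgeR adjusted p = 0.000204), and without both libraries of any 1 line its adjusted p was 0.000291 to 0.00366.

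SPRY2 (chromosome 12, 55341979 to 55347266), the closest relative of SPRY4 among the members, was at 67.3, 51.1, 50.7 and 62.7 CPM on MEF and at 57.6, 52.1, 59.4 and 61.8 CPM in feeder-free conditions in lines A, C, D and E. It was higher in 2 lines and lower in 2. Its log2FC was -0.0063 (SE 0.13, edgeR adjusted p = 0.987), with a sign that turned under most other settings. The log2 ratio of SPRY4 to SPRY2 reads was -0.14 ± 0.795 (SD, n = 4) on MEF and 1.64 ± 0.488 (SD, n = 4) in feeder-free conditions (exact permutation, two-sided p = 0.0286, adjusted over the 8 ratios 0.0458).

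Of the ERK phosphatases, DUSP6 passed as higher with line as a term and DUSP4 passed in neither fit. DUSP6, the cytoplasmic phosphatase with ERK as its main substrate (chromosome 5, 19212969 to 19217426), was at 71.1, 91.1, 141 and 80.5 CPM on MEF in lines A, C, D and E and at 94.4, 179, 287 and 153 CPM in feeder-free conditions. The conditions overlapped, since line A in feeder-free conditions remained below line D on MEF. All lines were higher, with log2 ratios of 0.41 in A, 0.97 in C, 1.03 in D and 0.93 in E. This gave a log2FC of 0.90 ± 0.33 (SE) at an edgeR adjusted p of 0.156, and the paired fit with the replicate block gave 0.84 (SE 0.13, edgeR adjusted p = 0.00409). Without both libraries of any 1 line the paired adjusted p was 0.00185 to 0.0305.

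DUSP4, a nuclear phosphatase of ERK and other MAP kinases (chromosome 27, 25679486 to 25693278), was at 40.6, 48.1, 71.3 and 78.2 CPM on MEF and at 46.6, 61.2, 63.6 and 57.8 CPM in feeder-free conditions in lines A, C, D and E. Lines A and C were higher and lines D and E lower. This gave a log2FC of -0.06 ± 0.21 (SE) at an edgeR adjusted p of 0.920, and the feeder-free values lay within the range on MEF. The log2 ratio of DUSP6 to DUSP4 reads was 0.69 ± 0.437 (SD, n = 4) on MEF and 1.54 ± 0.481 (SD, n = 4) in feeder-free conditions (exact permutation, two-sided p = 0.0286, adjusted over the 8 ratios 0.0458), although in line A it was higher by only 0.21.

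**Figure D2:**
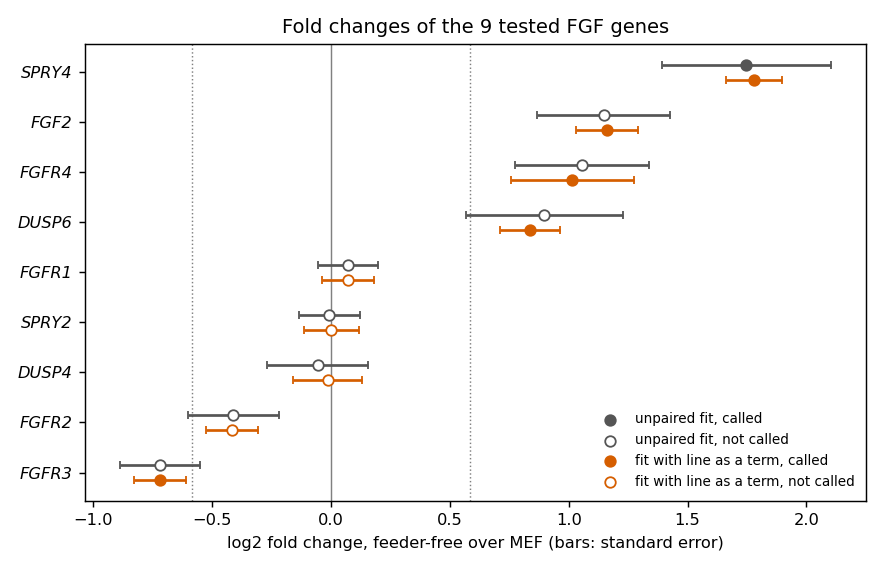
Log2 fold change (log2FC) of each tested gene, feeder-free over MEF, with its standard error, in the fit on condition alone (grey) and in the fit with cell line as a term (orange), filled where both thresholds were passed and with dotted lines at a fold change of 1.5. The estimates of both fits nearly coincide, 1.75 and 1.78 for SPRY4, while the standard errors of FGF2, SPRY4 and DUSP6 are smaller with the line in the fit.

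Several members kept their highest line in both conditions. Line D was highest and line A lowest for FGF2, FGFR4, SPRY4 and DUSP6 on MEF and again in feeder-free conditions. FGFR2 and FGFR3 had line A highest in both conditions. Line D was lowest for FGFR3 in both conditions, while for FGFR2 it was lowest on MEF and level with line E in feeder-free conditions. Over all genes tested, the 2 libraries of a line deviated together from the condition means, with correlations of 0.421 to 0.664. For libraries of different lines they were -0.523 to 0.249. Deviations cancel out over the lines of a condition, so positive values within lines bring negative ones between lines by construction.

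Genes with the most similar pattern were sought over the 8 libraries, which come from 4 lines and share the difference between conditions, so the values are a description. The 5 genes with the highest Pearson correlation to SPRY4 in log2 CPM were EGR2, FGF2, SLC16A7, CRX and GSR, at 0.983, 0.983, 0.978, 0.976 and 0.975. FGF2 was thus second among all other genes tested, and EGR2, an immediate early transcription factor, was first. SLC16A7, a monocarboxylate transporter, passed without pairing, at 1.95 on the log2 scale and an edgeR adjusted p of 0.0426. The 5 genes most like DUSP6 were NPTX2, SPP1, TULP3, LOC132343030 and PDGFB, at 0.995, 0.994, 0.994, 0.987 and 0.986. NPTX2, a neuronal pentraxin, went from a mean of 1.53 to 62.0 CPM, SPP1, which encodes osteopontin, from 2.15 to 38.8 CPM, and PDGFB, a growth factor ligand, from 1.99 to 16.4 CPM. All 3 were higher in 4 of 4 lines and were called higher when line was a term (replicate block), beside 5.52% of all genes. Since the genes were picked for likeness to SPRY4 or DUSP6, which were called higher in that fit, their direction and calls largely follow from the choice.

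**Figure D3:**
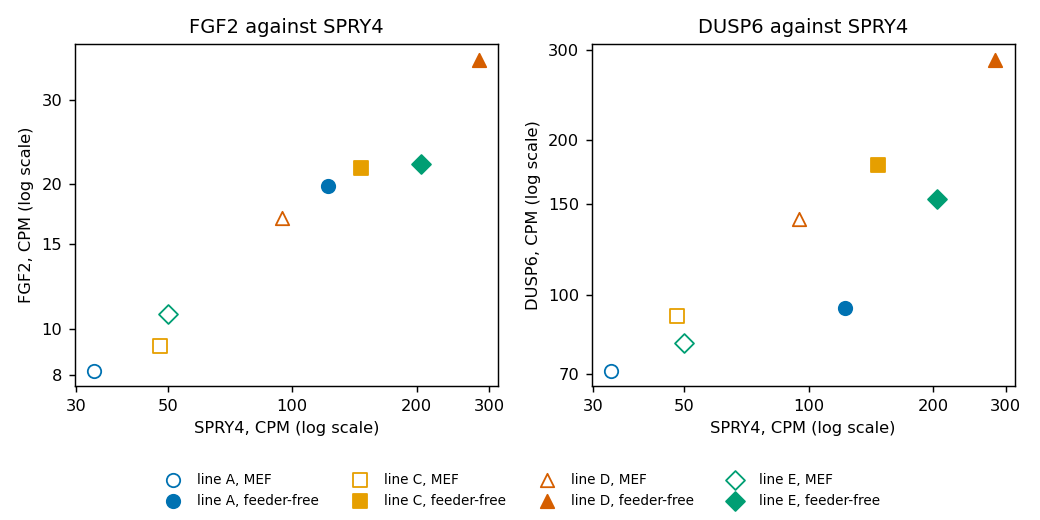
CPM of FGF2 (left) and DUSP6 (right) against SPRY4 in the 8 libraries, on log axes, with open symbols for MEF, filled symbols for feeder-free conditions and a symbol for each line. FGF2 follows SPRY4 through all libraries from line A on MEF (8.16 and 33.2 CPM) to line D in feeder-free conditions (36.4 and 283 CPM), whereas the feeder-free library of line A is low for DUSP6 (94.4 CPM) at its level of SPRY4.

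Markers of other cells were measured beside these genes. The 13 fibroblast markers summed to 943 to 1141 CPM on MEF and 634 to 1745 CPM in feeder-free conditions, mostly from COL1A1, MMP2 and FBLN1. None of the 12 tested passed in the unpaired fit, and with line as a term COL3A1 (a mean of 0.769 CPM on MEF and 4.69 CPM feeder-free) and POSTN (0.183 and 0.882 CPM) were called higher and COL1A2 (2.71 and 0.157 CPM) lower. TWIST2, untested, averaged 0.313 CPM on MEF and had 0 counts in every feeder-free library. The 8 trophoblast markers summed to 186 to 331 CPM on MEF and 213 to 1004 CPM in feeder-free conditions, almost all of it from the keratins KRT18 and KRT7, while CDX2 and IFNT2 had 0 counts in all 8 libraries. KRT18 and KRT7 were called higher and GATA2 lower with line as a term. The feeder-free library of line D was the highest in both sums and also in FGF2, SPRY4, DUSP6 and FGFR4, and the part of any of these markers in the results was not tested. In the paired fit without line D, SPRY4, FGF2 and DUSP6 still passed, and FGFR4 did not. The trophoblast sum was higher in feeder-free conditions in lines A (186 and 213 CPM), C (228 and 633 CPM) and E (245 and 456 CPM) as well. Leaving out line D is therefore no test of the part of these markers. The mesoderm markers summed to 2.31 to 8.30 CPM on MEF and 7.60 to 11.9 CPM in feeder-free conditions. Of these, EOMES, a T-box factor of the primitive streak, averaged 3.14 and 7.75 CPM. It was called higher with line as a term (edgeR adjusted p = 0.0307), in 4 of 4 lines but with overlap of the conditions. MIXL1 and TBX6 were called in neither fit, and TBXT, HAND1 and MESP1 were not tested. Hypoblast and endoderm markers summed to 4.99 to 15.3 CPM on MEF and 3.99 to 7.11 CPM in feeder-free conditions, with none of 3 tested called in either fit. Neural markers, chiefly TUBB3 and NES, summed to 248 to 405 CPM on MEF and 241 to 457 CPM in feeder-free conditions, with ZIC1 called lower with line as a term. Pluripotency markers summed to 3338 to 3803 CPM on MEF and 2915 to 3034 CPM in feeder-free conditions, without overlap, and none of 6 was called in either fit. SALL4 missed only the fold change threshold (log2FC of -0.58, unpaired edgeR adjusted p = 0.0426). SALL4, SOX2 and LIN28B were lower in 4 of 4 lines without overlap (8.36% of all genes), with paired edgeR adjusted p of 0.00614, 0.0436 and 0.0456. NANOG was lower in 4 lines with overlap, POU5F1 in 3 and DPPA3 in 2.

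The rest of the pathway was described from 5 lists with 95 genes in all, of which 83 were tested. In the unpaired fit 5 passed, 2 as higher and 3 as lower, beside 1.73% of all genes, and with the replicate block 20 passed, 15 as higher and 5 as lower, beside 10% of all genes. On leaving out any single library but feeder-free A, 0 genes of the lists passed in edgeR's unpaired test, beside 0 to 6 of all genes, and 25 to 32 had an unadjusted P-value under 0.05, beside 16.1 to 19.8% of all genes. Without feeder-free A 9 passed, beside 3.07% of all genes.

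Among the other FGF ligands, 16 were listed and 6 tested. FGF8, a ligand of the gastrulating embryo, fell from a mean of 5.51 ± 2.91 to 1.41 ± 0.435 CPM (SD, n = 4 each). This was a log2FC of -1.96 ± 0.40 (SE) at an edgeR adjusted p of 0.0466. FGF8 was lower in 4 of 4 lines without overlap, beside 8.36% of all genes without overlap in that direction. FGF17, of the same subfamily, passed as higher only with the replicate block (log2FC of 2.22, edgeR adjusted p = 0.0120), with 6 to 20 counts per library on MEF and 24 to 166 in feeder-free conditions, and with overlap of the conditions in CPM. FGF19, an endocrine ligand, averaged 34.6 ± 12.8 and 26.3 ± 2.23 CPM (SD, n = 4 each), lower in 4 of 4 lines but overlapping, and passed in neither fit.

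Of the co-receptors and adaptors, 15 were tested, with a median log2FC of -0.15. FRS2, the docking protein that couples FGF receptors to RAS, fell from a mean of 123 ± 15.2 to 73.0 ± 9.48 CPM (SD, n = 4 each) in 4 of 4 lines, which was a log2FC of -0.75 ± 0.14 (SE) at an edgeR adjusted p of 0.0388. Its span overlaps MIR2427 and LOC100138933. KLB, the co-receptor of endocrine FGFs, passed as lower with the replicate block (log2FC of -0.84, edgeR adjusted p = 0.0442). GRB2 and PTPN11, which bind FRS2, had log2FC values of 0.02 and 0.14 and passed in neither fit. None of the 16 genes from RAS to ERK and the RSK kinases passed in edgeR's unpaired or paired test, in DESeq2 or in limma-voom. Of all genes, 1.73%, 10%, 7.70% and 1.45% passed in these, so few of 16 would be called at those shares. An unadjusted P-value under 0.05 was reached by 2, beside 21.6% of all genes. Their log2FC values ran from -0.64 to 0.35 with a median of -0.05, against 0.01 over all genes tested.

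Of 20 other feedback inhibitors tested, 0 passed in edgeR's unpaired test, 7 had an unadjusted P-value under 0.05 (21.6% of all genes did), and 3 were called by DESeq2 (7.70% of all genes) and 0 by limma-voom (1.45%). With the replicate block 3 passed as higher, beside 5.52% of all genes. These were DUSP5, a nuclear ERK phosphatase, DUSP10, which acts on JNK and p38, and IL17RD, a membrane inhibitor of FGF signalling, with paired log2FC values of 1.99, 1.01 and 0.85 (edgeR adjusted p of 0.00196, 0.0134 and 0.00797). Each was higher in 4 of 4 lines. The median of the list was 0.05.

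The list of ERK-induced factors and targets comprised 26 tested genes, of which 18 had a log2FC above 0 (median 0.71), as did 7960 of all 15744 genes. The list also holds genes that ERK regulates in other ways, such as the repressor CIC, so its median is not a measure of ERK activity. ETV4, an ETS factor induced by FGF signalling, rose from a mean of 56.1 ± 2.42 to 92.8 ± 15.7 CPM (SD, n = 4 each). This was a log2FC of 0.73 ± 0.14 (SE) at an edgeR adjusted p of 0.0399. ETV4 was higher in 4 of 4 lines without overlap, beside 6.21% of all genes without overlap in that direction. Its relatives ETV1 and ETV5 had log2FC values of 0.41 and 0.20, and neither passed. FOS, an immediate early gene, rose from a mean of 0.749 ± 0.734 to 8.12 ± 1.58 CPM (SD, n = 4 each), with 7 to 75 counts per library on MEF and 362 to 1064 in feeder-free conditions (edgeR adjusted p = 0.0403). CIC, a repressor of ETV genes that ERK inactivates, fell from a mean of 111 ± 8.44 to 73.1 ± 3.62 CPM (SD, n = 4 each), which was a log2FC of -0.60 ± 0.10 (SE) at an edgeR adjusted p of 0.0331. With the replicate block 11 genes of this list passed as higher, beside 5.52% of all genes, and 2 as lower, beside 4.53%. After FOS, the largest among the higher were EGR3, EGR1 and FOSL1, with paired log2FC values of 1.63, 1.47 and 1.38, and CCND1, which encodes cyclin D1, was lower at -1.0 but in 3 of 4 lines.

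**Figure D4:**
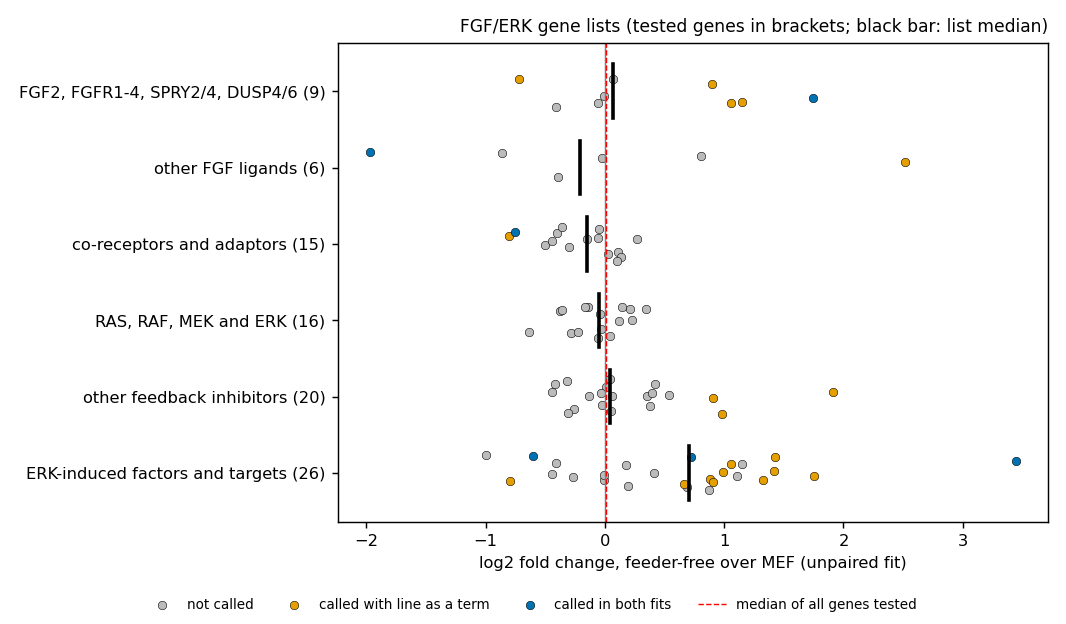
Log2 fold change (log2FC) of each tested gene, feeder-free over MEF, by list, with the list median as a black bar and the median of all genes tested as a dashed line. Genes called in both fits are blue and those called with the line as a term alone are orange. The list of ERK-induced factors and targets, which also holds the repressor CIC, has a median of 0.71 with most points to the right. The genes from RAS to ERK lie around 0 with none called. Of all genes, 1.73% were called in the unpaired fit and 10% with line as a term.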

How the data were processed

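RNA sequencing of 4 bESC lines on MEF and in feeder-free conditions, both in 5% O2, was analysed. The authors deposited raw counts per gene: Trimmomatic trimmed the reads, STAR placed them on ARS-UCD2.0, Picard and samtools removed optical duplicates and poorly mapped alignments, and featureCounts (Subread 1.6.2 in the submitters' processing notes) assigned them to genes. Strand was not given in the sources used here. Of counts from 1 to 200, 64.4 to 70.4 percent were even, against 49.3 to 51.5 percent of higher counts, so the mates of a pair appear to have been counted separately, and the reads behind low counts are not independent. The authors also describe subtracting reads of a pure MEF sample, which was not analysed here. How this subtraction changed single genes cannot be seen in the counts.

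Of 32640 genes, 3 without values were left out, and 0 columns were unused. Genes kept by filterByExpr (15744) were TMM-normalized and tested for condition with the quasi-likelihood F test of edgeR 4.0.16 (R 4.3.3). A gene passed when its Benjamini-Hochberg adjusted P-value lay below 0.05 and it changed by 1.5 times or more. CPM used TMM-scaled library sizes, log2 CPM added a prior count of 2, and each SE (standard error) followed from the log2 fold change (log2FC) and its F value. The line letter pairs the libraries, since MEF and feeder-free cultures came from the same lines, so a paired fit was added in which line entered as a term (the replicate block). P-values measure the spread between 4 lines with 1 library per condition each. Coordinates came from the RefSeq annotation of ARS-UCD2.0, in which all 10 members were found. The settings varied were the scaling (RLE or none), filters on low counts, the tool (DESeq2 1.42.0 or limma-voom in limma 3.58.1), the fold change threshold (none), the libraries or lines left out, and, added after the data were examined, thinning of the feeder-free library of line D. The fits were tested on simulated counts.

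Named genes were the 10 members, every pathway gene called in the unpaired fit, up to 4 per list and direction called in the paired fit, and the 5 genes most like SPRY4 and DUSP6. ETV1, ETV5, GRB2, PTPN11, FGF19, SPRY1, SPRY3 and the marker genes were named after their values were seen. The members and lists were chosen with earlier results of these data known.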

Additional observations from a re-analysis of the deposited data

How the results depend on the processing

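The fold changes of the members depended less on the processing than their calls did. The count of members called was 1, and 5 with DESeq2 or with the replicate block (pairing by line), and 0 without scaling beyond library size, where the adjusted p of SPRY4 was 0.0522. Leaving out 1 library gave 0 to 2: without feeder-free A the 2 were SPRY4 and FGFR3, and without any of the other 7 libraries it was 0. With line as a term, leaving out 1 line lost only FGFR4, without C, D or E. The count of pathway genes called was 5, and 2 without scaling, 3 without a filter, 18 with DESeq2, 20 with the replicate block and 0 to 9 without 1 library. Over all genes, 114 were higher and 158 lower. No filter gave 73 and 97, no scaling lowered the lower count to 91, and a floor of 10 counts per library took the higher count to 199. DESeq2 gave 695 and 517, the replicate block 869 and 713, and leaving out 1 library 0 to 259 and 0 to 231. With line as a term, 5 members and 20 pathway genes were called. Without the pairing these were 1 and 5, and without both libraries of 1 line the pathway count was 12 to 20. Dropping the fold change threshold left 1 member and 5 pathway genes called. Thinning the feeder-free library of line D to the depth of the others left 1 member called, and 5 with the replicate block.

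The sign of SPRY2 turned under many settings, always at an adjusted p above 0.7: its log2 fold change was 0.0038 with RLE size factors, 0.038 without scaling, 0.015 without a filter, 0.0024 with at least 10 counts, 0.0040 with DESeq2, 0.0055 with limma-voom, 0.0020 with the replicate block and -0.065 to 0.072 without 1 library. Against the paired value it was -0.0063 without the pairing, -0.0027 with thinning and -0.073 to 0.076 without 1 line. DUSP4 ran from -0.20 to 0.10 without 1 library and, with line as a term, from -0.12 to 0.14 without 1 line. For these changes the cause was not tested, beyond fewer libraries or other genes tested by construction. FGF4 was below the filter and has no fold change. Of the tested members FGFR4 had the fewest reads, 66 to 524 per library.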

Other observations

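Genes of the pathway below the filter on low counts still gave reads. DUSP2, a nuclear phosphatase of ERK, had 0, 1, 4 and 2 counts on MEF in lines A, C, D and E. In feeder-free conditions it had 13, 10, 73 and 30, so the conditions did not overlap, beside 6.21% of the genes tested in that direction. FGF22 had at most 14 counts (0.336 CPM) on MEF and 45 (0.440 CPM) in the feeder-free library of line D, the deepest. FGF3, an FGF of the primitive streak and neural tissue, had 18 counts (0.408 CPM) in the MEF library of line E. In the feeder-free library of line D it had 34 (0.332 CPM), with 8 or fewer in the others. FGF5, a marker of the primed epiblast in the mouse, had at most 2 counts in any library. FGF6 and FGF20 had 0 counts in all 8 libraries. These genes were not tested, and DUSP2 was chosen for naming after its values were seen.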
